A study of Mus musculus with 8 samples.

Results

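Translation factors are the proteins that carry a ribosome through the start of an mRNA and along its coding sequence, and the genes described here are those whose symbols begin with Eif1 to Eif6, Eef1 or Eef2. The symbol alone chose them, with no use of measured values, and where a symbol stood at more than 1 entry of the count table, the most abundant entry was taken. The rule found 72 genes among the 47706 listed, of which 64 were protein-coding, and 66 passed the filter on low counts and were tested. They were measured by poly(A) RNA sequencing in primary calvarial osteoblasts, the bone-forming cells isolated by digestion from the skullcap of newborn mice. All 8 cultures were differentiated for 7 days and then starved of serum, and 4 received PTH (the PTH peptide of the bone-anabolic drug teriparatide) and 4 received vehicle for 24 hours. The labels call the 7 days adipogenic differentiation, whereas the methods of the study describe an osteogenic medium. No genotype, strain or sex is given in the labels for these cultures, and the "Con" of the sample names is not explained there.

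Initiation begins when eIF2 brings the initiator tRNA to the small ribosomal subunit together with eIF1, eIF1A, eIF3 and eIF5. The eIF4 factors recruit the mRNA, since eIF4E binds the cap, eIF4G is the scaffold and eIF4A is the helicase, and eIF4E-binding proteins hold eIF4E back until mTORC1 phosphorylates them. Elongation then runs on eEF1A, which delivers aminoacyl-tRNA and is recharged by the eEF1B complex, and on eEF2, which moves the ribosome along and is inhibited by eEF2 kinase. Phosphorylation of eIF2α by its kinases or of eEF2 by its kinase lowers protein synthesis, and osteoblasts are known for a high secretory load of collagen. These are controls on proteins, and only transcript levels were measured here.

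Total counts were between 33605610 and 56090654 in the PTH-treated samples and between 41618108 and 46757836 in the vehicle-treated samples, and the factor genes took 1.553% to 1.694% of them. PTH replicate 1 had the most counts and PTH replicate 2 the fewest. The 10 most abundant genes took 15.7% and 12.1% of their counts, against 14.2% to 15.9% with vehicle. The part of this difference between samples in single values was not tested. Values are CPM, counts scaled to the TMM-normalized library size, given for replicates 1 to 4 in that order, and means are ± SD with n = 4. Differences are log2 fold changes of PTH over vehicle with their standard errors, and a gene was called higher or lower where edgeR's quasi-likelihood test gave a Benjamini-Hochberg adjusted p under 0.05 over all 16736 tested genes. The labels do not say whether the 4 samples of a treatment were separate isolations of cells, so p-values measure the spread between these samples, which may be technical. Tnfsf11, the gene for RANKL and a known target of PTH, was examined as a check of the treatment labels and was at 1.42 ± 0.365 CPM with vehicle and 128 ± 20.01 CPM with PTH. Osteoblast markers had a median of 214 to 377 CPM per sample and adipocyte markers a median of 2.67 to 5.78 CPM, so the cultures carried the markers of the cell type that the labels name. Of 10 osteoblast markers, Runx2, Sp7 and Dmp1 were lower with PTH and none was higher. Over all tested genes 22.5% were lower and 23.3% were higher, and the counts of called markers here and below are to be read beside these shares. Macrophage markers were present in all samples, with 3 of 10 (Cd14, Lyz2 and Tyrobp) higher with PTH and none of the 10 at 0. Their median was 33.2 to 57.8 CPM per sample. Their summed level was 1022 to 1662 CPM with vehicle and 1604 to 2068 CPM with PTH, and their part in the results below was not tested. The summed level of the osteoblast list was 76688 to 87711 CPM with vehicle and 73270 to 106007 CPM with PTH. Of 7 tested chondrocyte markers, Col2a1 and Acan were higher with PTH, and the summed level of that list was 486 to 561 CPM with vehicle and 567 to 707 CPM with PTH. Endothelial markers summed to 8.80 to 10.2 CPM with vehicle and 10.8 to 13.3 CPM with PTH, with Kdr and Flt1 higher, Tek lower and Emcn at 0 in all samples, and skeletal muscle markers summed to 7.82 to 12.7 and 8.33 to 11.8 CPM. The part of these lists was not tested either. In bulk RNA, fewer cells of a type and less RNA per cell cannot be told apart.

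Sequence bears on 1 of the results first of all, because a processed pseudogene of Eif4a1 is in the table as a factor gene of its own. Eif4a-ps4 (chr1:60703932-60705149, GRCm38) aligned to the coding sequence of Eif4a1 (chr11:69666936-69672423) over 1218 bases with 1 mismatch, G534A, in which the base of Eif4a1 comes first and positions are counted from 1 at its start codon. The stretch around that base, positions 504 to 564 of the coding strand, is shown from both genes with the mismatch in capitals, from the GENCODE M21 transcripts. The pseudogene's stretch lies at chr1:60704435-60704495 on the plus strand.
Eif4a1: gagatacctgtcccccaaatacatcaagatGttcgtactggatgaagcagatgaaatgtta
Eif4a-ps4: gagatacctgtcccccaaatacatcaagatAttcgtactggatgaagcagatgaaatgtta
Read pairs that do not cover this base match both genes over the coding sequence, so how the authors' counting split the reads decides both values. The counts of the pair were therefore also summed, which is given with the helicases.

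Promoter sequence is shown for 4 genes whose transcripts moved, from the 250 bases before the transcript start in RefSeq (GRCm38.p6), because the PTH receptor signals through cAMP and Eif4e is a textbook target of the E-box factor MYC. The motifs TGACG, the core of the cAMP response element, and CACGTG, the E-box bound by MYC and its relatives, were searched on both strands, as was the palindrome TGACGTCA, which contains TGACG. Both the motifs and the 4 genes were chosen after the values were known. All 4 hold a match, but other genes that moved do not. Among these are Eef2kmt, which had the largest decrease of the factor genes, and Eif2ak3. Capitals mark a match, and CGTCA is TGACG on the other strand. The 30 bases of Eif4e, the cap-binding protein, are chr3:138527191-138527220 on the plus strand, from 77 to 48 bases before its second RefSeq start, where both motifs overlap. The Eif1 stretch is chr11:100319699-100319884 on the plus strand, which ends where the annotated exon begins. The Eif4a1 window is chr11:69672424-69672673 on the minus strand, and that of Eef2k, the eEF2 kinase, is chr7:120842581-120842830 on the plus strand. Eef2k has 3 RefSeq windows and Eif4e has 2, and those that are not shown held none of the motifs. Of the windows shown in part, that of Eif1 also held TGACG 8 bases before the start. That of Eif4e also held CACGTG 228 bases before the start.
Eif4e: cggacacgtcCGTCACGTGggcaggagccg
Eif1: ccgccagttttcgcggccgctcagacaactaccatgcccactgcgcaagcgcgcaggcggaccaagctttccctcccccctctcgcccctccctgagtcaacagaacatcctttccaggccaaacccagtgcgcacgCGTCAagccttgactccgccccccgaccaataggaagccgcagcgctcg
Eif4a1: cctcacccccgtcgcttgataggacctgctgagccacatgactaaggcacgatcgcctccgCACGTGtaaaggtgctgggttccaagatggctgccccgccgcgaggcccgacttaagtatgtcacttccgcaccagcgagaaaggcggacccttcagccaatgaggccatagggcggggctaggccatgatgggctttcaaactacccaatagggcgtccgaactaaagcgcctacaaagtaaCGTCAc
Eef2k: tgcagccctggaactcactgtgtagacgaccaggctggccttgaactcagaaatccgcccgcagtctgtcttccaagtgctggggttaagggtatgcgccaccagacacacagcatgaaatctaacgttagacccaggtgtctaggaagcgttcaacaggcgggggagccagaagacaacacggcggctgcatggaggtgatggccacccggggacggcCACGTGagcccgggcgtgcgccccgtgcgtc
RefSeq windows were found for 51 of the 72 genes, 66 windows in all. TGACG was in 42.4% of them, against 17.8% of all 32851 windows and 25.1% of the windows of tested genes. Some genes have several windows, up to 6 for Eif5a, so shares are also given per gene. TGACG was in at least 1 window of 45.1% of the 51 factor genes, against 19.8% of all genes and 29.4% of tested genes. It was there in 8 of the 17 genes that were higher with PTH, 5 of the 9 that were lower and 10 of the 24 that were not called. CACGTG was in 19.7% of their windows, against 6.02% of all windows and 7.99% of those of tested genes, and in 4 of the 17 higher, 2 of the 9 lower and 5 of the 24 uncalled genes. TGACGTCA was in 0 of the 66 windows and in 1.55% of all windows. A match is a description of the letters in this window and not a site of binding.

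Of the 66 tested factor genes, 23 were higher with PTH, 10 were lower and 33 were not called. The higher share was 34.8%, against 23.3% of all tested genes, and the lower share was 15.2%, against 22.5%. The median log2 fold change of the 66 was 0.16, from -0.69 to 1.01, and that of all tested genes was -0.00. Most changes were small, since 4 of the 23 and 4 of the 10 reached an absolute log2 fold change of 0.5. In 28 genes all 4 PTH-treated samples lay above all 4 vehicle-treated samples and in 8 they lay below, which is the pattern of 21.2% and 21.8% of all tested genes. Each of these genes had a two-sided p of 0.0286 in the exact permutation test on log2(CPM + 0.1), the smallest that the 70 assignments allow. The plot of fold changes by role shows the spread in each factor group.

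**Figure D1:**
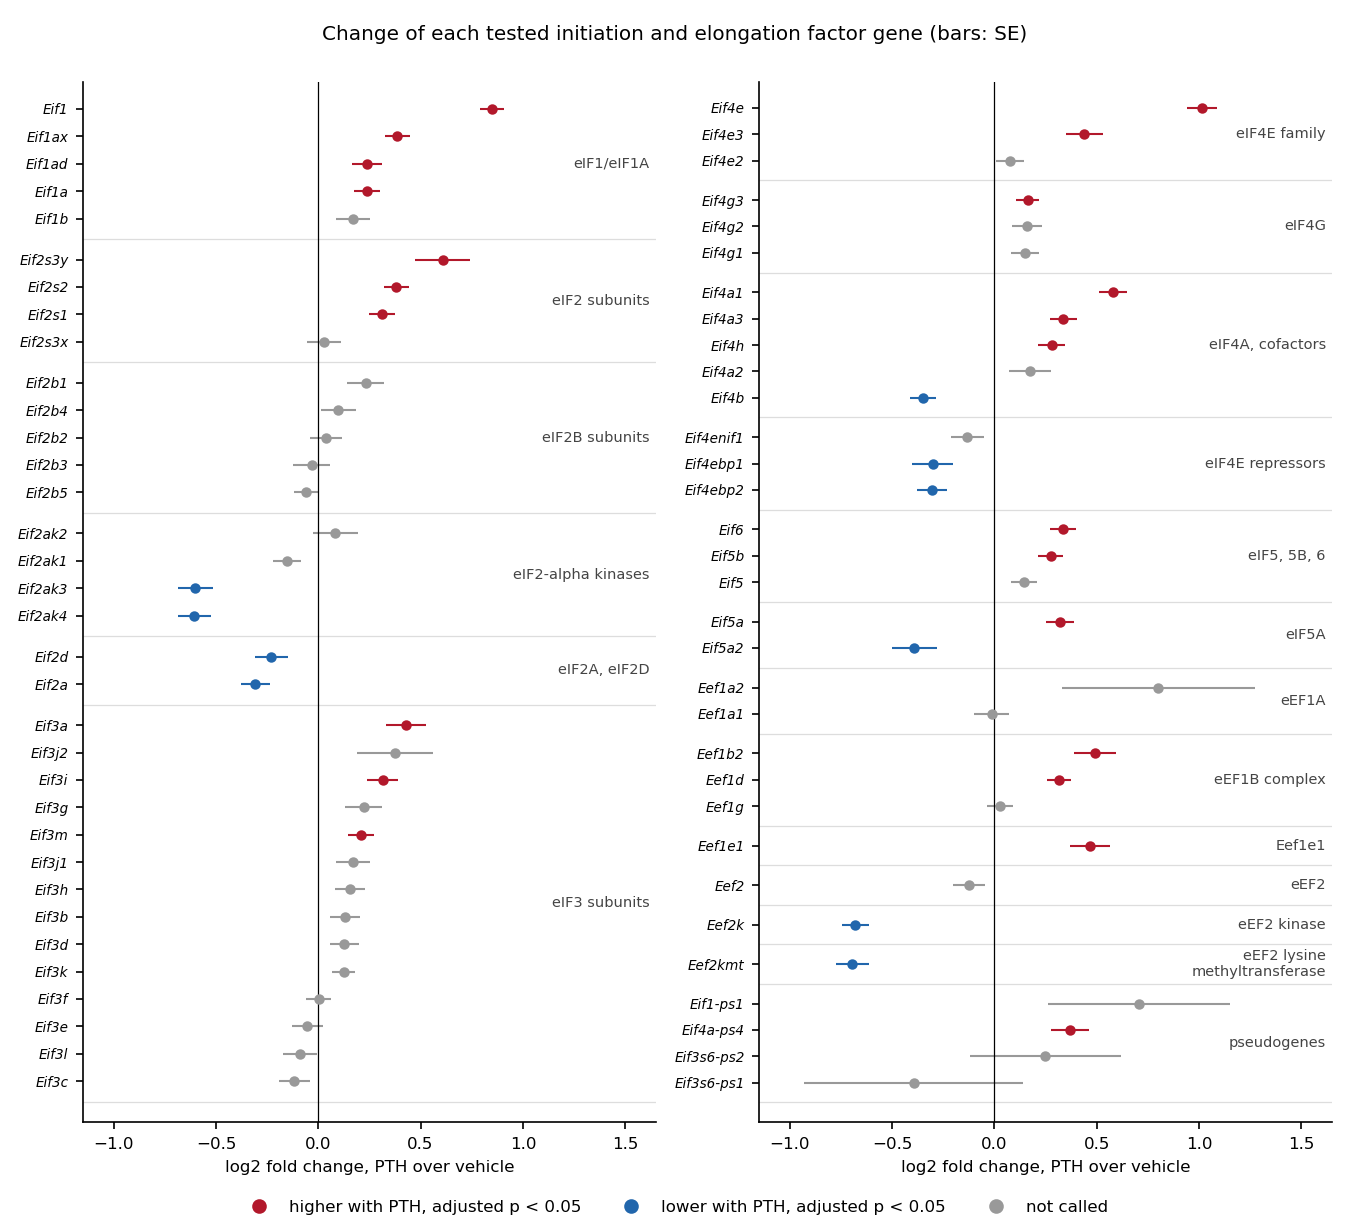
Log2 fold change of PTH over vehicle (x axis) for each of the 66 tested factor genes, grouped by role, with bars for the SE and colour for the call at an adjusted p under 0.05. Eif4e at 1.01 and Eif1 at 0.85 lie farthest to the right among called genes, and the eEF2 regulators Eef2kmt and Eef2k lie farthest to the left.

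The Eif1 group holds eIF1 and eIF1A, the small factors that keep the scanning ribosome open and guard the choice of start codon. In this group 4 of 6 tested genes were higher, against 23.3% of all tested genes, and none was lower, against 22.5%. The median log2 fold change was 0.31. Eif1 itself (chr11:100319885-100322096) was at 196, 199.7, 191 and 194 CPM with vehicle and at 359, 349, 354 and 346 CPM with PTH. The groups were far apart and tight, and the adjusted p was the smallest of the factor genes (log2 fold change 0.85, SE 0.0573, adjusted p = 1.76e-07). 13 other genes of the annotation share near-identical sequence with Eif1 (at least 150 bases at 95% identity or more), so its counts can be split with copies. Its paralog Eif1b was at 29.1 ± 1.99 and 32.7 ± 2.98 CPM, with overlapping samples, and was not called (adjusted p = 0.116). The eIF1A genes Eif1ax on the X chromosome (a log2 difference of 0.39, adjusted p = 3.22e-04) and Eif1a (a log2 difference of 0.24, adjusted p = 0.00949) and the related Eif1ad (a log2 difference of 0.24, adjusted p = 0.0185) were higher, each with no overlap. The Eif1a call was lost (adjusted p = 0.0566) if low counts were left unfiltered. The Eif1ad call was lost in the same way (adjusted p = 0.0835) and without PTH replicate 1 (adjusted p = 0.0512), PTH replicate 4 (0.0525) or vehicle replicate 2 (0.0703).

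The trimeric eIF2 carries the initiator tRNA, and 3 of its 4 subunit genes were higher with PTH, against 23.3% of all tested genes. Eif2s1, the α subunit that the stress kinases phosphorylate, was at 69.6, 66.5, 71.7 and 65.6 CPM with vehicle and 85.7, 84.9, 90.3 and 78.8 CPM with PTH. All PTH-treated samples lay above the vehicle-treated samples (log2 fold change 0.31, SE 0.0633, adjusted p = 0.00159). The β subunit gene Eif2s2 rose from 80.5 ± 3.22 to 105 ± 5.82 CPM (a log2 difference of 0.38, adjusted p = 3.62e-04). The γ subunit has an X-linked and a Y-linked gene, and these differed in their calls.

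Eif2s3x, the X-linked gene, was at 146, 153, 154 and 154 CPM with vehicle and 178, 134, 145 and 161 CPM with PTH. The PTH-treated samples lay on both sides of the vehicle-treated samples and the gene was not called (log2 fold change 0.03, adjusted p = 0.812). Eif2s3y (chrY:1010543-1028847) was at 14.8, 13.5, 14.2 and 15.2 CPM with vehicle and 15.96, 26.0, 25.01 and 21.3 CPM with PTH. It was called higher (log2 fold change 0.61, SE 0.134, adjusted p = 0.00280), with PTH replicate 1 just above the vehicle-treated samples and replicates 2 and 3 well above them. From highest to lowest the PTH replicates were 2, 3, 4 and 1. Eif2ak2 and Eif4a2, on chromosomes 17 and 16, had the same order, and other factor genes had other orders. A test of the difference between the changes of Eif2s3x and Eif2s3y was not run.

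Other sex-linked genes are given beside Eif2s3y, since Y-linked transcripts come from male cells alone. Ddx3y, a Y-linked RNA helicase, was at 40.1, 44.7, 42.2 and 42.3 CPM with vehicle and 79.8, 72.3, 75.4 and 71.8 CPM with PTH (a log2 difference of 0.82, adjusted p = 6.22e-07). Uty rose from 11.8 ± 1.68 to 18.5 ± 1.76 CPM (a log2 difference of 0.64, adjusted p = 6.21e-04). Kdm5d was not called, with 14.6, 14.6, 12.9 and 12.3 CPM with vehicle and 10.7, 14.5, 13.9 and 12.9 CPM with PTH (log2 fold change -0.07, adjusted p = 0.665). Xist, transcribed from the inactive X chromosome of female cells, was at 286, 248, 283 and 270.3 CPM with vehicle and 245, 648, 483 and 332 CPM with PTH. Its groups overlapped, yet Xist was called higher with PTH (log2 fold change 0.65). Xist thus spread more among the PTH-treated samples than among the vehicle-treated samples. Xist and Kdm5d had the same order of the PTH-treated samples as Eif2s3y, and Eif2s3x had the reverse order. Ddx3y did not follow that order and was highest in PTH replicate 1. The sex of the cultures is not in the labels, and its part in the Eif2s3y result was not tested.

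**Figure D2:**
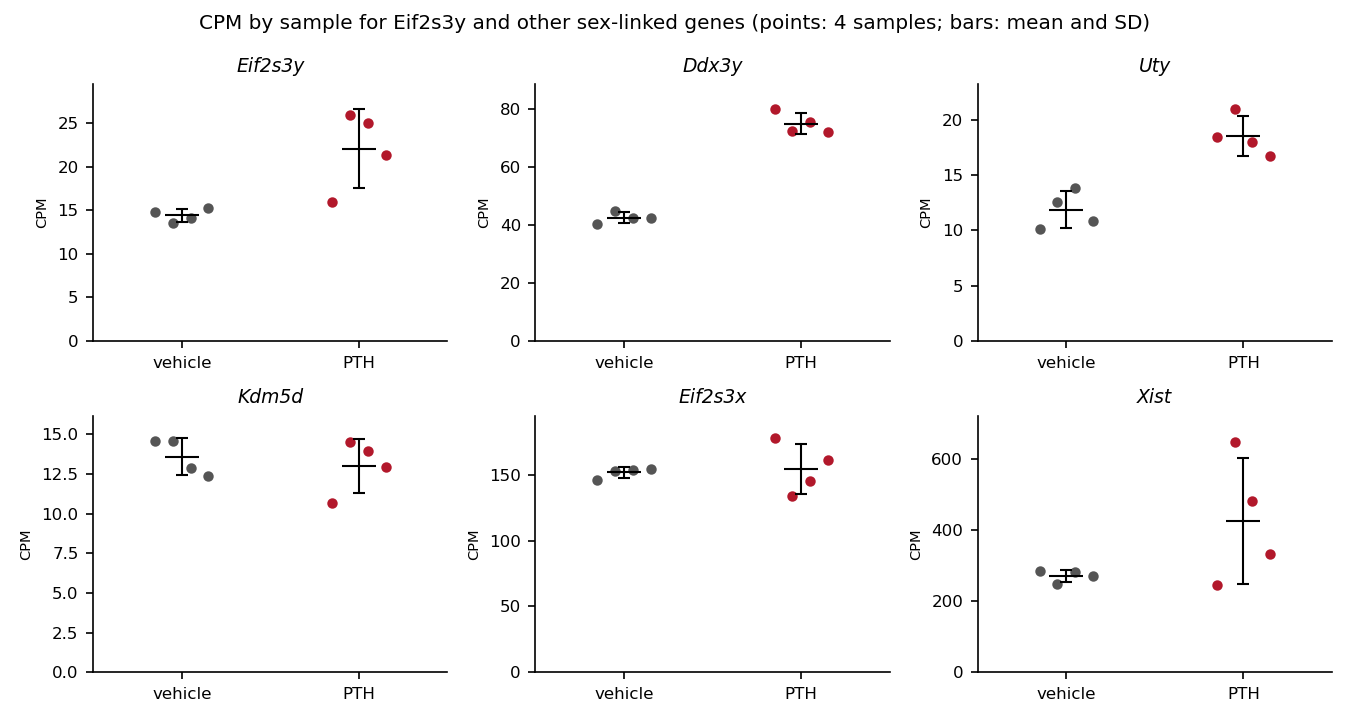
CPM (y axis, from 0) in the 4 vehicle-treated and 4 PTH-treated samples for Eif2s3y, its X-linked counterpart Eif2s3x and 4 other sex-linked genes, with points for samples and bars for the mean and SD. Eif2s3y, Ddx3y and Uty lie higher with PTH without overlap, Kdm5d and Eif2s3x overlap, and Xist spreads from 244.6 to 648 CPM among the PTH-treated samples.

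The exchange factor eIF2B reloads eIF2 with GTP and is the target that phosphorylated eIF2α blocks. None of its 5 subunit genes was called, against 45.8% of all tested genes in either direction. Eif2b5, the catalytic subunit, was at 45.1, 48.3, 49.7 and 47.7 CPM with vehicle and 45.9, 46.5, 45.8 and 44.8 CPM with PTH, and the groups overlapped (log2 fold change -0.06, SE 0.0594, adjusted p = 0.438). Eif2b1 lay nearest the threshold (log2 fold change 0.23, adjusted p = 0.0525), and the other 3 had log2 fold changes of -0.03 to 0.10. A miss of the threshold does not show equal levels, and Eif2b1 passed it without PTH replicate 2 (adjusted p = 0.0344) or vehicle replicate 3 (0.0266).

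The 4 kinases of eIF2α each answer another stress, and 2 of them were lower with PTH, against 22.5% of all tested genes. Eif2ak3, which encodes PERK, the sensor of unfolded protein in the endoplasmic reticulum, was at 78.8, 79.6, 77.8 and 79.6 CPM with vehicle and 60.6, 47.8, 45.3 and 54.2 CPM with PTH. The vehicle-treated samples were tight and the PTH-treated samples spread below them (log2 fold change -0.60, SE 0.0857, adjusted p = 1.23e-04). Eif2ak4, which encodes GCN2, the sensor of uncharged tRNA, was at 22.5, 23.9, 24.2 and 21.4 CPM with vehicle and 13.99, 16.1, 15.9 and 14.5 CPM with PTH. All PTH-treated samples were below the lowest vehicle-treated sample (log2 fold change -0.61, SE 0.0817, adjusted p = 7.98e-05). Eif2ak1, the heme-regulated kinase HRI, was at 59.4 ± 1.69 and 53.3 ± 4.13 CPM and was not called (adjusted p = 0.0844), although it passed without PTH replicate 1 (adjusted p = 0.0182). Eif2ak2, the double-stranded RNA sensor PKR, was at 59.4, 64.0, 64.9 and 56.9 CPM with vehicle and 51.6, 77.4, 69.9 and 61.0 CPM with PTH, and the groups overlapped (log2 fold change 0.08, adjusted p = 0.565).

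Both other eIF2-named factors that bring tRNA to the ribosome outside the eIF2 route were lower. Eif2a fell from 51.6 ± 1.63 to 41.7 ± 3.29 CPM (a log2 difference of -0.31, adjusted p = 0.00338). Eif2d was at 36.1 ± 3.76 and 30.8 ± 1.26 CPM (a log2 difference of -0.23, adjusted p = 0.0368), and its adjusted p was 0.126 without vehicle replicate 2, the highest vehicle-treated sample, and between 0.0503 and 0.0876 without PTH replicate 2, PTH replicate 4, vehicle replicate 3 or vehicle replicate 4. With 3 higher and 4 lower of 15 tested, the Eif2 group as a whole had a median log2 fold change of 0.03. These shares of 20% and 26.7% lie near the 23.3% and 22.5% of all tested genes.

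eIF3 is the large scaffold that holds the small ribosomal subunit and its factors together. Of its 14 subunit genes, Eif3a, Eif3i and Eif3m were higher with PTH and none was lower, with a median log2 fold change of 0.14. The higher share was 21.4%, close to the 23.3% of all tested genes, and 22.5% of all tested genes were lower. Eif3a, the gene of the largest subunit, was at 264, 262, 269 and 271 CPM with vehicle and 318, 435, 367 and 316 CPM with PTH. All PTH-treated samples lay above the vehicle-treated samples, and replicate 2 lay highest (log2 fold change 0.43, SE 0.0967, adjusted p = 0.00326). Eif3i rose from 88.7 ± 3.08 to 110.3 ± 11.3 CPM (a log2 difference of 0.31, adjusted p = 0.00463) and Eif3m from 60.8 ± 2.99 to 70.4 ± 3.51 CPM (a log2 difference of 0.21, adjusted p = 0.0171). The Eif3m call was lost without PTH replicate 3 (adjusted p = 0.0653), vehicle replicate 1 (0.0700) or vehicle replicate 2 (0.0653).

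The other eIF3 subunit genes had log2 fold changes between -0.12 (Eif3c) and 0.37 (Eif3j2). Eif3e was at 185, 187, 194 and 179.7 CPM with vehicle and 162, 189.9, 198 and 169 CPM with PTH, so the groups overlapped fully (log2 fold change -0.05, SE 0.0743, adjusted p = 0.590). Eif3g was not called (log2 fold change 0.22, adjusted p = 0.0659) but passed without PTH replicate 3 (adjusted p = 0.0499) or vehicle replicate 1 (0.0404), and Eif3k was not called although its samples did not overlap (log2 fold change 0.12, and -0.14 with a length correction). Eif3j1 and Eif3j2 are near-identical genes for the same loosely bound subunit, and neither was called alone (adjusted p = 0.119 and 0.120), while Eif3j1 passed without PTH replicate 2 (adjusted p = 0.0124) and their summed counts were called (log2 fold change 0.20, adjusted p = 0.0278). Levels between genes can be compared only per length, and on the scale of CPM per kilobase of transcript the vehicle means of 12 subunit genes lay between 42.6 for Eif3g and 134 for Eif3h. Eif3j1 was lower, at 12.1 CPM per kilobase, and Eif3j2 was at 3.93. The length taken for Eif3j1 was 5413 bases, the longest of these genes, against 1101 for Eif3g. In CPM the vehicle mean of Eif3j1, 65.3, was above the 46.9 of Eif3g. The plot of levels per length sets the subunits of the complexes side by side.

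**Figure D3:**
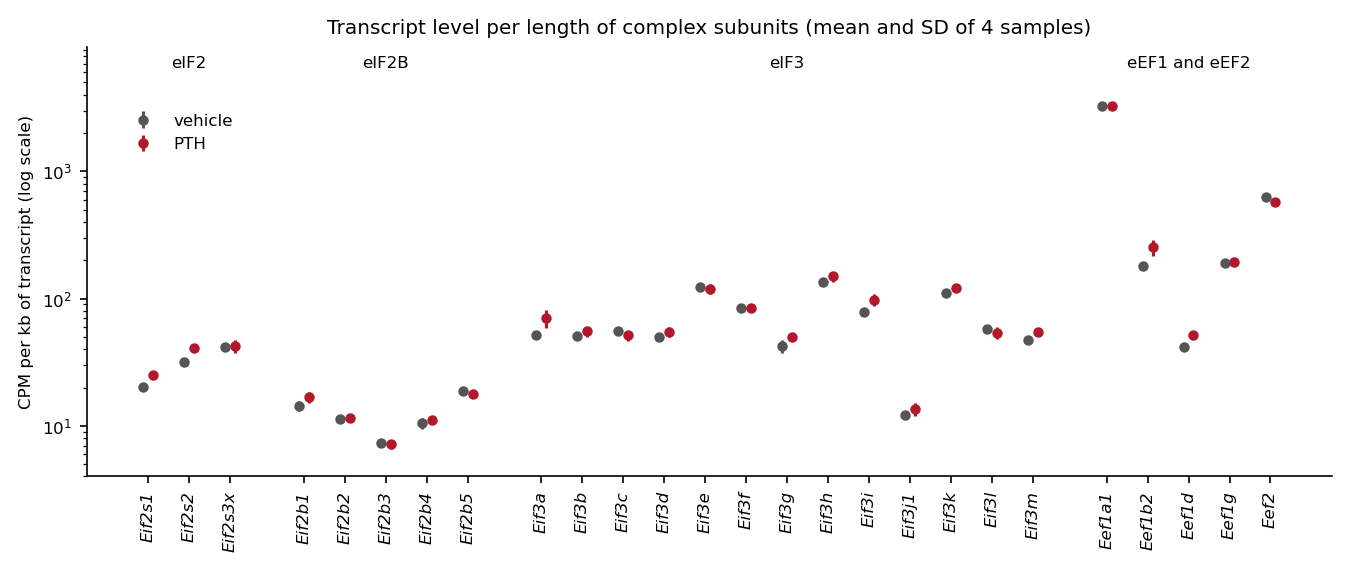
CPM per kilobase of transcript (y axis, log scale) for subunit genes of eIF2, eIF2B, eIF3, eEF1 and eEF2, with the mean and SD of 4 samples per treatment. The 5 eIF2B genes lie between 7.16 and 18.7, most eIF3 genes lie between 42.6 and 149, and Eef1a1 lies far above all others in both treatments.

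Within the cap-binding complex, the cap-binding protein itself had the largest increase of all called factor genes. Eif4e (chr3:138526179-138559696) was at 66.7, 65.8, 67.5 and 68.7 CPM with vehicle and at 156, 127, 130.3 and 129 CPM with PTH. The vehicle-treated samples lay close together, and every PTH-treated sample lay far above them, with replicate 1 the highest. This was a fold of 2.02 (log2 fold change 1.01, SE 0.0742, adjusted p = 3.71e-07), and the log2 fold change went from 0.94 to 1.06 when 1 sample at a time was left out. Its relative Eif4e3 rose from 21.4 ± 1.47 to 29.1 ± 3.25 CPM (a log2 difference of 0.44, adjusted p = 0.00190), in a locus that the assembly merged with Foxp1 and other symbols. Eif4e2, a cap-binding protein that represses translation, was at 83.2 ± 6.13 and 87.7 ± 4.06 CPM and was not called (adjusted p = 0.394). Eif4e1b, the oocyte form, had too few counts to be tested.

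Of the 3 tested repressors that bind eIF4E, 2 were lower, against 22.5% of all tested genes, and none was higher. Eif4ebp1 was at 28.1, 29.5, 23.6 and 26.2 CPM with vehicle and 19.0, 21.1, 25.1 and 21.8 CPM with PTH. PTH replicate 3 lay above vehicle replicate 3, so the groups overlapped, yet the gene was called lower (log2 fold change -0.30, SE 0.0998, adjusted p = 0.0265). That call was lost on leaving out PTH replicate 1, 2 or 4 or vehicle replicate 1 or 2, with adjusted p between 0.0534 and 0.0763. Eif4ebp2 was at 37.4, 37.9, 39.6 and 41.1 CPM with vehicle and 34.5, 28.9, 29.9 and 32.8 CPM with PTH, with no overlap (log2 fold change -0.30, SE 0.0750, adjusted p = 0.00551). Eif4ebp3 was near 0 throughout, with 0 to 9 counts per sample, and was not tested. Eif4enif1, which carries eIF4E to the nucleus, was at 44.8 ± 1.94 and 40.8 ± 4.19 CPM and was not called (adjusted p = 0.2005).

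The helicase eIF4A unwinds the 5′ leader of the mRNA, and Eif4a1 is its main gene. Eif4a1 was at 288, 291, 288 and 316 CPM with vehicle and 484, 429, 425 and 432 CPM with PTH, with PTH replicate 1 the highest and no overlap (log2 fold change 0.58, SE 0.0693, adjusted p = 2.94e-05). The entry of its pseudogene, Eif4a-ps4, was at 153, 158, 161 and 181 CPM with vehicle and 248, 185, 198 and 211 CPM with PTH (log2 fold change 0.37, SE 0.0923, adjusted p = 0.00618). That call was lost once transcript length was corrected for (adjusted p = 0.0584). The base in capitals printed above is the only mismatch of the entries over the 1218 aligned bases. The Eif4a1 transcript, of 1774 bases, extends beyond them. Per kilobase the vehicle means were 167 CPM for Eif4a1 and 134 CPM for the pseudogene. Summed, the pair was at 459 ± 25.3 CPM with vehicle and 653 ± 53.8 CPM with PTH (log2 fold change 0.51, adjusted p = 2.12e-04), and this alternative was chosen after the data were seen. Eif4a2, the second helicase gene, was at 265 ± 11.4 and 299 ± 48.3 CPM and was not called (adjusted p = 0.188), although it passed without PTH replicate 1 (adjusted p = 0.0298).

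Eif4a3, the helicase of the exon junction complex rather than of initiation, rose from 82.6 ± 2.77 to 104 ± 7.85 CPM (a log2 difference of 0.34, adjusted p = 0.00137). The cofactors that stimulate eIF4A were called in opposite directions. Eif4h rose from 221 ± 11.8 to 268 ± 11.6 CPM (a log2 difference of 0.28, adjusted p = 0.00397). Eif4b, a substrate of the S6 kinases, was at 266, 281, 288 and 294 CPM with vehicle and 226, 212, 213 and 234 CPM with PTH, all PTH-treated samples below all vehicle-treated samples (log2 fold change -0.35, SE 0.0643, adjusted p = 8.28e-04). Of the scaffolds, Eif4g1 was at 458, 478, 472 and 466 CPM with vehicle and 553, 513, 482 and 531 CPM with PTH, higher in every PTH-treated sample but short of the threshold (log2 fold change 0.15, SE 0.0663, adjusted p = 0.0868). Eif4g3 was called (a log2 difference of 0.16, adjusted p = 0.0318), and its adjusted p was between 0.0534 and 0.111 without any 1 of the 4 vehicle-treated samples and 0.0682 and 0.0756 without PTH replicates 3 and 4. Eif4g1 passed once transcript length was corrected for (adjusted p = 0.0164). Eif4g2, which lacks the eIF4E-binding part, was not called although its samples did not overlap (a log2 difference of 0.16, adjusted p = 0.0966). It passed without PTH replicate 2 (adjusted p = 0.0435), and its log2 fold change turned to -0.11 with the correction for length. That correction took a transcript of only 742 bases for Eif4g2, against 5638 for Eif4g1 and 6139 for Eif4g3. Eif4g1, Eif4g2 and Eif4g3 all lie in loci that hold another symbol.

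**Figure D4:**
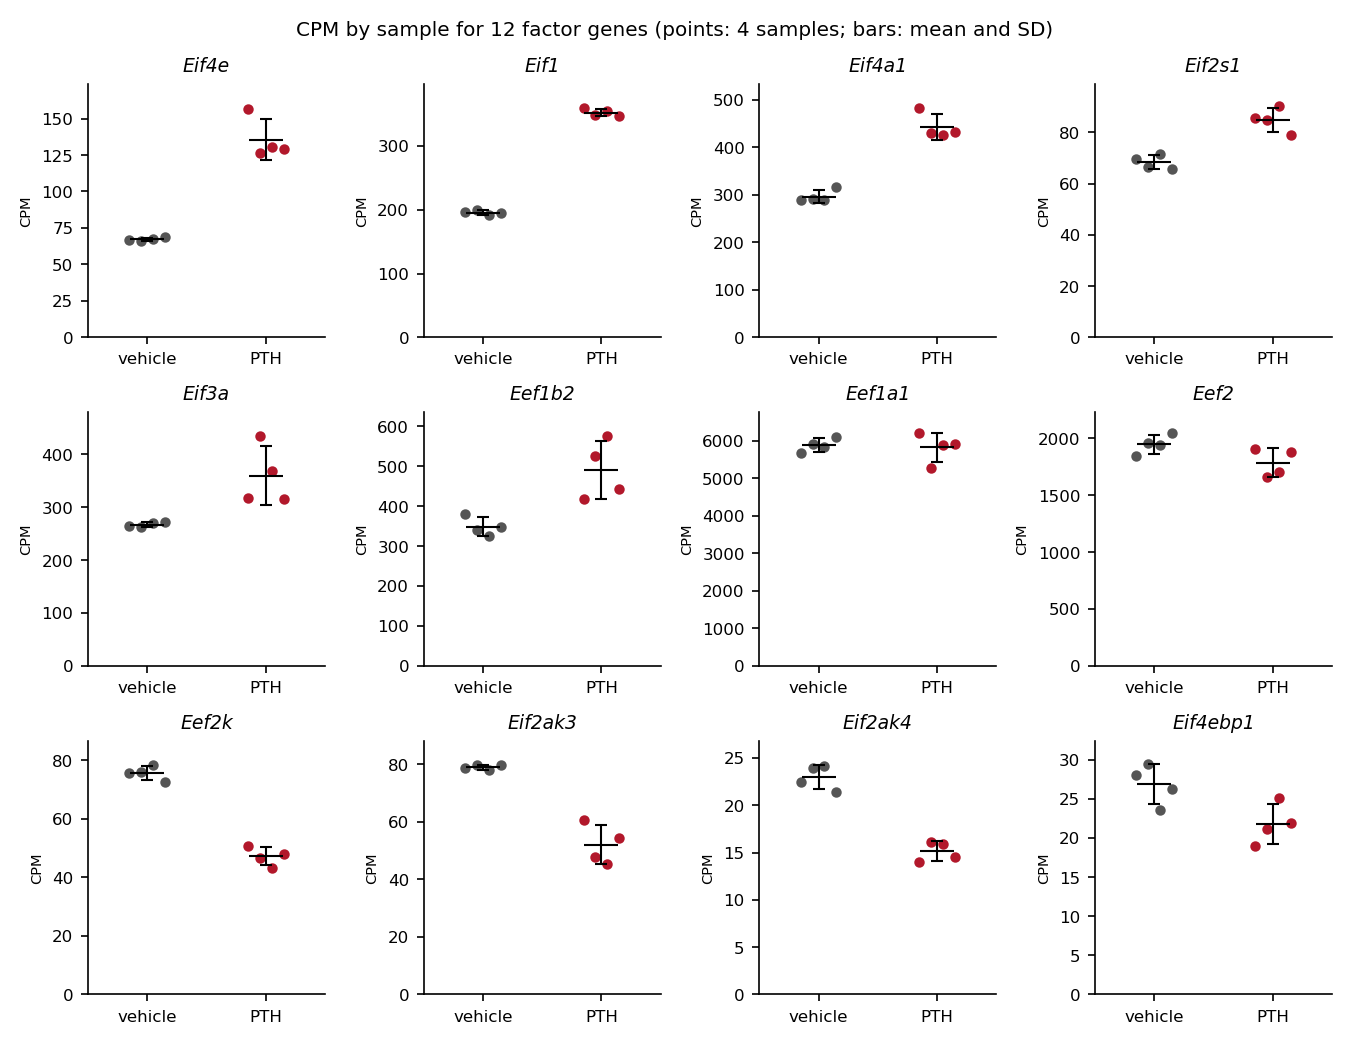
CPM (y axis, from 0) in the 4 vehicle-treated and 4 PTH-treated samples for 12 factor genes, with points for samples and bars for the mean and SD. Eif4e, Eif1, Eif4a1, Eif2s1, Eif3a and Eef1b2 lie higher with PTH, Eef2k, Eif2ak3 and Eif2ak4 lie lower, and the samples overlap for Eef1a1, Eef2 and Eif4ebp1.

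The factors eIF5, eIF5B and eIF6 act around the joining of the ribosomal subunits. Eif6, which keeps free large subunits from joining, was at 43.1, 40.0, 40.5 and 43.1 CPM with vehicle and 54.6, 53.9, 48.5 and 53.3 CPM with PTH, with no overlap (log2 fold change 0.34, SE 0.0648, adjusted p = 0.00117). Eif5b, the joining GTPase, rose from 107 ± 2.04 to 129 ± 8.11 CPM (a log2 difference of 0.27, adjusted p = 0.00331). Eif5, which makes eIF2 hydrolyze its GTP, was at 221 ± 12.4 and 244 ± 5.61 CPM with no overlap and was not called (adjusted p = 0.0809), although it passed once transcript length was corrected for (adjusted p = 0.00981). The paralogs of eIF5A, the hypusine-bearing factor that helps ribosomes through proline stretches, were called in opposite directions. Eif5a was at 354, 368, 347 and 362 CPM with vehicle and 472, 409, 457 and 446 CPM with PTH, with no overlap (log2 fold change 0.32, SE 0.0669, adjusted p = 0.00199). Eif5a2, the much lower of the pair, was at 23.7, 29.1, 31.1 and 24.5 CPM with vehicle and 23.8, 18.2, 20.6 and 19.9 CPM with PTH, with PTH replicate 1 inside the vehicle range (log2 fold change -0.39, SE 0.110, adjusted p = 0.0114). Per kilobase the vehicle means were 249 CPM for Eif5a and 5.39 CPM for Eif5a2.

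In elongation, the most abundant factor genes, Eef1a1 and Eef2, were not called. Eef1a1 was at 5672, 5908, 5836 and 6113 CPM with vehicle and 6199, 5286, 5889 and 5931 CPM with PTH, and the groups overlapped (log2 fold change -0.01, SE 0.0857, adjusted p = 0.910). Its counts can be shared with 9 near-identical genes, and the log2 fold change turned to 0.02 once transcript length was corrected for. Eef1a2, the form of muscle and neurons, had 6 to 34 counts per sample and was not called (log2 fold change 0.80, SE 0.470, adjusted p = 0.187). Eef2 was at 1844, 1955, 1939 and 2041 CPM with vehicle and 1906, 1657, 1699.8 and 1877 CPM with PTH, overlapping (log2 fold change -0.12, SE 0.0794, adjusted p = 0.229). Per kilobase, Eef1a1 was at 3279 CPM and Eef2 at 629 CPM with vehicle.

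Of the 3 genes of the eEF1B complex that recharges eEF1A, Eef1b2 and Eef1d were higher with PTH, against 23.3% of all tested genes. Eef1b2, the exchange subunit, was at 379.7, 341, 325 and 349 CPM with vehicle and 418, 524, 575 and 442 CPM with PTH, with no overlap (log2 fold change 0.49, SE 0.102, adjusted p = 0.00187). Eef1d, the other exchange subunit, rose from 96.5 ± 4.58 to 120.0 ± 2.60 CPM (a log2 difference of 0.31, adjusted p = 8.94e-04). Eef1g, the structural subunit, was at 366, 347, 355 and 362 CPM with vehicle and 379, 342, 364 and 373 CPM with PTH and overlapped (log2 fold change 0.03, SE 0.0624, adjusted p = 0.739). Eef1e1, which in spite of its symbol encodes a protein of the multi-synthetase complex, rose from 10.7 ± 0.678 to 14.8 ± 1.52 CPM (a log2 difference of 0.47, adjusted p = 0.00209).

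The largest decreases of the factor genes were in the enzymes that modify eEF2. Eef2k (chr7:120842831-120907450), the kinase that inhibits eEF2, was at 75.7, 75.9, 78.3 and 72.6 CPM with vehicle and 50.8, 46.7, 43.2 and 48.0 CPM with PTH. No PTH-treated sample came near the vehicle-treated samples (log2 fold change -0.68, SE 0.0656, adjusted p = 4.61e-06). Eef2kmt (chr16:5244152-5255983), the lysine methyltransferase of eEF2, was at 28.4, 26.1, 25.9 and 28.2 CPM with vehicle and 15.8, 16.04, 18.7 and 16.6 CPM with PTH. The groups were as clearly apart (log2 fold change -0.69, SE 0.0801, adjusted p = 2.22e-05), and Eef2 itself overlapped.

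The 8 genes that were not protein-coding were pseudogenes or other entries, and Eif4a-ps4 was the 1 of 4 tested that was called. Eif3s6-ps1, a copy of Eif3e, was at 0.240 ± 0.0858 and 0.183 ± 0.0930 CPM (log2 fold change -0.39, SE 0.535, adjusted p = 0.580). Of the 6 genes that were not tested, Eif1-ps3 and Eif3s6-ps4 were at 0 in all 8 samples, and Eif2c5, Eif4e1b, Eif4ebp3 and Eif5al3-ps had few counts. In all, 28 of the 72 shared near-identical sequence with another gene, and 15 lay in a locus that holds another symbol, many of them a small RNA in an intron. The called genes in such loci were Eef1b2, Eif3a, Eif4a1, Eif4e, Eif4e3 and Eif4g3.

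Genes that act beside the factors were described from 8 lists with 126 genes, none of them a factor gene by the rule. Of these, 29 were higher (23.0%), 37 were lower (29.4%) and 60 were not called, with a median log2 fold change of -0.04, next to 23.3% and 22.5% of all tested genes. Each list is given by its counts, read beside these shares of all tested genes, and by its largest called change in each direction. Other genes named were chosen after their values were seen. The plot of the lists shows all of the values.

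**Figure D5:**
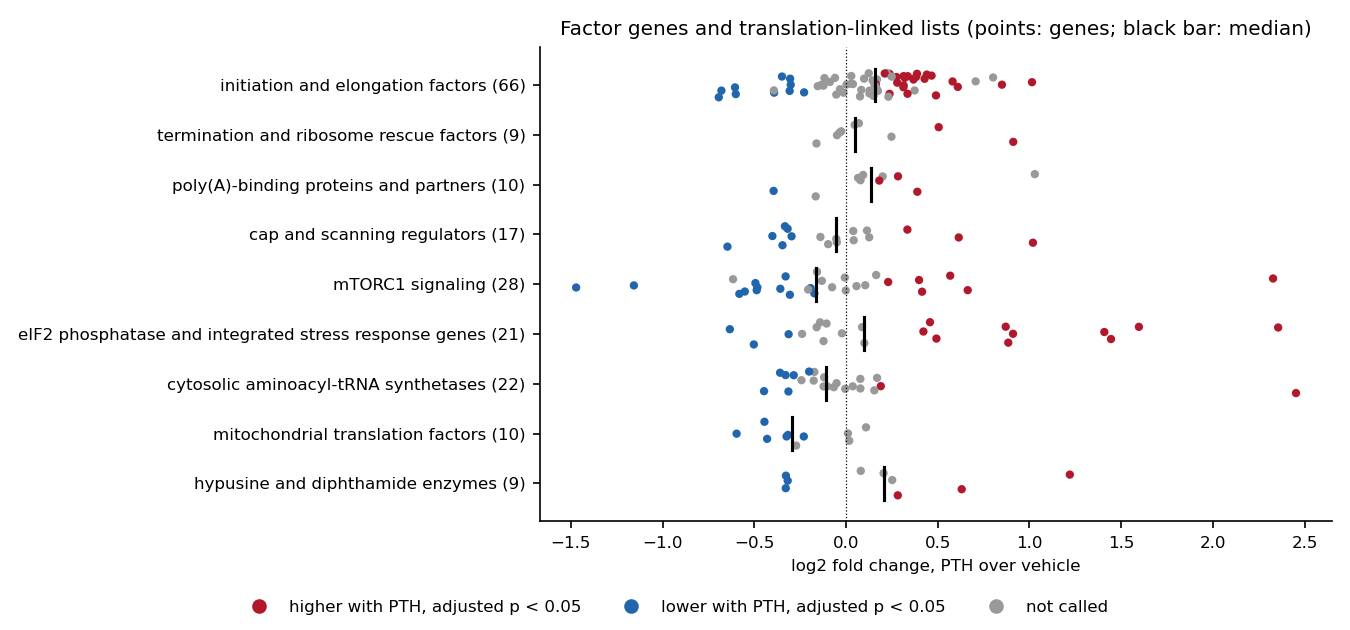
Log2 fold change of PTH over vehicle (x axis) for the 66 tested factor genes and for 8 lists of translation-linked genes, with 1 point per gene coloured by its call and a black bar at the median. The list medians lie between -0.29 for mitochondrial translation factors and 0.20 for the hypusine and diphthamide enzymes, and single genes such as Eprs at 2.45 lie far outside their list.

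Of 9 termination and ribosome rescue factors, 2 were higher (22.2%, near the 23.3% of all tested genes) and none was lower (median 0.05). Etf1, the release factor that reads all stop codons, was at 110.5, 119.6, 114 and 119 CPM with vehicle and 234, 204, 217 and 216 CPM with PTH (log2 fold change 0.91, SE 0.0643, adjusted p = 2.67e-07). Its partner Gspt1 was not called (log2 fold change -0.03, adjusted p = 0.794), whereas Gspt2 was higher (a log2 difference of 0.51, adjusted p = 0.0363). Among 10 poly(A)-binding proteins and partners, 3 were higher and 1 was lower (median 0.14), led by Larp4 (a log2 difference of 0.39, adjusted p = 0.00250) and Paip2b (a log2 difference of -0.39, adjusted p = 7.34e-04).

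Of 17 regulators of the cap and of scanning, 3 were higher and 6 were lower (median -0.05). Mknk2, a kinase that phosphorylates eIF4E, was at 62.8, 69.8, 63.9 and 66.2 CPM with vehicle and 142, 129, 123 and 138 CPM with PTH (log2 fold change 1.02, SE 0.0670, adjusted p = 1.41e-07), an increase close to that of Eif4e itself. Its paralog Mknk1 was lower (a log2 difference of -0.33, adjusted p = 0.00734), as was Pdcd4, an inhibitor of eIF4A (a log2 difference of -0.35, adjusted p = 9.10e-04). The largest decrease of the list was in Angel1, an eIF4E-binding protein (a log2 difference of -0.65, adjusted p = 0.00260).

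The mTORC1 list, the pathway that phosphorylates the eIF4E-binding proteins, held 6 higher and 12 lower genes of 28 (median -0.17). Ddit4, an inhibitor of the pathway, rose from 34.5 ± 3.08 to 173 ± 10.9 CPM (log2 fold change 2.33, SE 0.0792, adjusted p = 3.61e-10). Its relative Ddit4l had the largest decrease (a log2 difference of -1.47, adjusted p = 7.44e-08), and all 3 sestrin genes, inhibitors as well, were lower, with log2 fold changes of -1.16, -0.48 and -0.58 for Sesn1, Sesn2 and Sesn3. Rheb, the activating GTPase, was higher (a log2 difference of 0.41, adjusted p = 1.76e-04) and of the S6 kinase genes Rps6kb1 was lower (a log2 difference of -0.31, adjusted p = 0.00266) and Rps6kb2 was higher (a log2 difference of 0.66, adjusted p = 0.00636). Genes for activators and for inhibitors were thus called in both directions, and the activity of the pathway was not measured.

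The list of the eIF2 phosphatase and the integrated stress response, the program that follows phosphorylation of eIF2α, held 10 higher and 3 lower genes of 21 (median 0.10). Ppp1r15a, the inducible subunit that directs the phosphatase to eIF2α, was at 17.7, 17.4, 14.9 and 15.1 CPM with vehicle and 88.3, 79.1, 86.5 and 79.7 CPM with PTH (log2 fold change 2.36, SE 0.0814, adjusted p = 4.29e-10). The constitutive subunit gene Ppp1r15b was also higher (a log2 difference of 0.42, adjusted p = 4.87e-04). Atf4, the transcription factor of the program, rose from 145 ± 8.19 to 204 ± 7.87 CPM (a log2 difference of 0.49, adjusted p = 5.92e-05), as did the amino acid transporter genes Slc7a5 (a log2 difference of 1.60, adjusted p = 5.78e-07) and Slc3a2 (a log2 difference of 1.44, adjusted p = 2.62e-09). The other higher genes of the list were Atf3, Impact, Slc7a11, Trib3 and Atf5, with log2 fold changes of 1.41, 0.88, 0.91, 0.87 and 0.46 in that order. Not every target of the program was higher, since Ddit3 and Asns were not called (adjusted p = 0.627 and 0.430) and the serine synthesis gene Phgdh was lower (a log2 difference of -0.50, adjusted p = 0.00505). Chac1 had the largest decrease, with overlapping samples (a log2 difference of -0.63, adjusted p = 0.0443).

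Of 22 cytosolic aminoacyl-tRNA synthetases and their scaffold proteins, 2 were higher and 6 were lower (median -0.11). Eprs, the glutamyl-prolyl-tRNA synthetase gene, was at 162, 171, 167 and 188 CPM with vehicle and 984, 941, 917 and 925 CPM with PTH (log2 fold change 2.45, SE 0.0735, adjusted p = 1.28e-10). The only other gene of the list that was called higher was Aars (a log2 difference of 0.19, adjusted p = 0.0361). The largest decrease was in Vars (a log2 difference of -0.45, adjusted p = 2.96e-04).

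Mitochondrial translation factors were lower in 6 of 10 cases and higher in none (median -0.29). Mtif2, the mitochondrial initiation factor, was at 22.5, 22.6, 24.1 and 19.6 CPM with vehicle and 12.3, 17.1, 16.8 and 12.7 CPM with PTH (log2 fold change -0.60, SE 0.121, adjusted p = 0.00162). The elongation factor gene Tufm had the smallest called decrease of the list (a log2 difference of -0.23, adjusted p = 0.0209). The enzymes that make hypusine on eIF5A and diphthamide on eEF2 were higher in 3 of 9 cases and lower in 3 (median 0.20). Dph5, a methyltransferase of the diphthamide route, rose from 5.59 ± 0.2998 to 13.02 ± 1.92 CPM (a log2 difference of 1.22, adjusted p = 5.42e-06), and Dph1, of the first step, had the largest decrease (a log2 difference of -0.33, adjusted p = 0.0248). Dohh, which completes hypusine, was higher (a log2 difference of 0.28, adjusted p = 0.00763).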

How the data were processed

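RNA from 4 PTH-treated and 4 vehicle-treated calvarial osteoblast cultures was sequenced as paired reads of 150 bases. Reads were mapped by the authors with HISAT2 to GRCm38 (mm10 in the submitters' processing notes) and assembled with StringTie2. The authors deposited whole-number counts per gene, which the companion script of StringTie2 estimates from transcript coverage and which were not scaled between samples. That script assumes reads of 75 bases unless told otherwise. The value used, the annotation version and the strand setting are not given in the sources used here, so a gene and an antisense or overlapping neighbour may share counts.

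The condition of each sample came from its label. Rows were filtered by edgeR's filterByExpr (minimum count 10, minimum total 15) and tested with edgeR 4.0.16 in R 4.3.3 (TMM, quasi-likelihood F-test, two-sided, Benjamini-Hochberg over all tested rows, threshold 0.05). All 8 samples entered the fit, with no covariate. The authors used DESeq2, and DESeq2 1.42.0 was an alternative. Single genes were also compared by the exact two-sided permutation test on log2(CPM + 0.1). Similar genes were found with blastn 2.17.0. Positions and lengths are from GENCODE M21, which held all 72 genes, and promoters are from RefSeq. Python 3.11.15 and pandas 2.3.3 were used for tables, and the fits were tested on simulated data.

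The members, lists, markers and rule for naming genes were chosen with earlier results of these data known. The rule gives full statistics to the 3 largest called increases and decreases (mean level 1 CPM or more), to the largest and smallest change of each factor group, and to a fixed set of core factors. Alternatives were DESeq2, its size factors in edgeR, no filter, the sample number as a block, each sample left out, counts halved, rows of 1 symbol summed, a log2 fold change of 0.5 or more, offsets for length or GC content, the 10 most abundant rows left out and a pseudocount of 1. Summing the counts of Eif4a1 with Eif4a-ps4 and of Eif3j1 with Eif3j2 was added after the data were seen. The reads and the study's work in mice and stromal cells were not analysed here.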

Additional observations from a re-analysis of the deposited data

Results flagged for a closer look

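For each of the 45 factor genes that were called or named by rule and each treatment, the gap between the highest or lowest of the 4 samples and its neighbour was divided by the range of the group, and 5 of the 90 groups passed Dixon's critical value. Chance alone passes about 1 group in 20. Eif4e was at 156 CPM in PTH replicate 1, above the other PTH-treated samples, the highest of which was at 130.3 CPM. Eif4a1 was at 484 CPM in the same sample, above the 432 CPM of the next, and at 316 CPM in vehicle replicate 4, above the 291 CPM of the next. Eif1ax was at 97.2 CPM in vehicle replicate 1, above 89.3 CPM. Eif2s3x was at 146 CPM in the same sample, below the 153 CPM of the next. The calls of Eif4e, Eif4a1 and Eif1ax were kept when the sample that stood apart was left out, and Eif2s3x remained not called.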

How the results depend on the processing

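Of the 33 called factor genes, 26 kept their call under all 17 alternatives that recompute single genes, and no called gene changed sign. DESeq2 also called all 33. Of the 7 that did not keep it, Eif1a, Eif1ad, Eif3m and Eif4g3 lost it if low counts were left unfiltered (adjusted p = 0.0566 to 0.148) and Eif2d, Eif3m and Eif4a-ps4 with an offset for transcript length (0.0584 to 0.119). In turn 10 uncalled genes passed under 1 or more alternatives. With the length offset these were Eif5, Eif4g1, Eif3b, Eif3j1 and Eif2b1 (adjusted p = 0.00981 to 0.0387), with counts halved Eif2b1 and Eif3g (0.0405 and 0.0494), and without 1 sample Eif4g2, Eif2ak1, Eif4a2, Eif3g, Eif3j1 and Eif2b1. The minimum log2 fold change of 0.5 left 4 higher and 4 lower factor genes, and 17 higher and 8 lower genes of the translation-linked lists. On leaving out 1 sample at a time, 20 to 26 factor genes were higher and 8 to 10 lower, and 24 to 31 listed genes were higher and 29 to 38 lower. The deviations of same-numbered samples from their treatment means correlated at -0.041 to 0.027 over genes. These correlations showed no pairing by sample number, but could miss a weak one, and the labels do not settle it. With the number as a block, 24 factor genes were higher and 8 lower (25 and 31 of the lists). Under the block Eif2d, Eif4ebp1 and Eif4g3 lost their calls and Eif3g and Eif3j2 gained one. The sign changed in 10 uncalled genes, among them Eif4g2 and Eif3k, whose samples do not overlap, and the cause was not tested. With an offset for transcript length the log2 fold change was -0.11 for Eif4g2, -0.14 for Eif3k, 0.012 for Eif2b5 and 0.017 for Eef1a1. The length taken for Eif4g2 was only 742 bases. Without the filter it was -0.033 for Eif3f, -0.0061 for Eif2s3x and -0.0067 for Eef1g. For Eif3f it was -0.0015 with DESeq2 and -0.0083 without the 10 most abundant rows. Leaving out 1 sample gave ranges of -0.047 to 0.040 for Eef1a1, -0.031 to 0.043 for Eif3f, -0.082 to 0.0027 for Eif2b3, -0.0015 to 0.067 for Eif2b2, -0.049 to 0.10 for Eif2s3x and -0.0025 to 0.18 for Eif2ak2. Depth limits Eef1a2 and the genes that were not tested, and transcript levels do not measure protein or phosphorylation.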
